A study of Mus musculus with 14 samples.

Results

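A set of 42 genes of mouse peritoneal macrophages was raised by bacterial lipopolysaccharide (LPS) and raised again when the LPS had been preceded by 300 mg/kg of an agent that the labels call SMD and do not spell out. The genes were chosen by their measured values among 18193 genes that had a probe set with a single gene symbol. On the scale log2(signal + 16), the mean of the LPS arrays had to lie at least 1 above the mean of the naive arrays, and the mean of the 300 mg/kg arrays at least 1 above that of the LPS arrays. The lowest LPS array also had to exceed both naive arrays, and the lowest 300 mg/kg array had to exceed all LPS arrays. Where several probe sets of a gene passed, the one with the highest mean stood for the gene. Of 34945 probe sets, 2922 (8.36%) passed the first step, 2638 (7.55%) passed the second step and 50 (0.143%) passed both. These 50 probe sets belonged to the 42 genes, and 6 genes (Gna13, Hspa1b, Mbd1, Mmd, Plscr1 and Zfand5) had more than 1 of them.

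The study used female C57Bl/6 x C3H F1 mice of 12 to 16 weeks and measured total RNA labelled from peritoneal macrophages on single-colour Affymetrix arrays, 1 array per sample. There were 2 naive samples, 3 with LPS alone and 3 each with SMD at 100, 200 or 300 mg/kg given before LPS. The design text describes 50 µl of SMD solution placed on the nares under halothane, followed 30 minutes later by LPS of ultra pure grade (Salmonella minnesota), 60 µg per mouse into a tail vein. The labels put the harvest 2.0 hours after LPS for the SMD groups and state no time for the LPS group. They also state no vehicle for the control groups, and no group received SMD without LPS. The LPS-challenged samples are called biological replicates and the naive ones only replicates, so p-values measure the spread between these samples.

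Macrophages sense LPS through Toll-like receptor 4, which activates NF-kB and the MAP kinases and, within hours, switches on early response genes. These include cytokines, the enzyme that starts prostaglandin synthesis, transcription factors of the AP-1 and NF-kB families, and inhibitors that later restrain the response. Many early transcripts are short-lived, and stress pathways such as the heat-shock response act on cells at the same time. In bulk RNA from a cell population, fewer cells of a type and less RNA per cell cannot be told apart.

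The macrophage markers Adgre1 and Csf1r were high on all arrays. Adgre1, which encodes the F4/80 antigen, lay between 15879 and 25125 signal units over the 14 arrays, and Csf1r, the receptor for macrophage colony-stimulating factor, between 19588 and 29279. The 18 macrophage markers summed to 251750 to 268913 with LPS and 245492 to 272640 at 300 mg/kg. Single markers of that list changed. Gata6 was at 2526 to 2804 on the naive arrays and 735 to 888 with LPS, and Fcgr1 at 5455 to 7793 with LPS and 202 to 763 at 300 mg/kg. B-cell transcripts were also present, with Ms4a1, which encodes CD20, between 18919 and 21572 on the naive arrays, 12362 and 18181 with LPS, and 9979 and 12704, 13211 and 16541, and 18859 and 21438 at 100, 200 and 300 mg/kg. Mast-cell transcripts were bright too, with Cpa3 between 11527 and 22827 and Cma1 between 13931 and 18544 over the 14 arrays. The 10 mast-cell markers summed to 44664.5 to 46862 on the naive arrays, 57267 to 64890 with LPS and 54429 to 57710 at 300 mg/kg. Control probe sets at the 3' and 5' ends of the beta-actin mRNA give a signal ratio that goes up when RNA is degraded or labelling is incomplete. This actin ratio was 2.84 and 3.05 on the naive arrays, 1.92, 5.86 and 2.17 with LPS alone, 4.33, 11.6 and 2.72 at 100 mg/kg, 9.66, 9.03 and 10.7 at 200 mg/kg and 6.99, 16.2 and 18.9 at 300 mg/kg. The actin ratio was thus higher on every 200 and 300 mg/kg array than on any LPS array. The matching Gapdh ratio did not separate these groups, at 4.54, 92.0 and 16.8 with LPS, 86.0, 114.5 and 67.0 at 200 mg/kg and 32.2, 65.0 and 178.7 at 300 mg/kg.

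Promoter windows are shown for 5 genes whose rises from LPS to 300 mg/kg were among the largest of the set. The RefSeq table (GRCm38.p6) held promoters for 34 of the 42 genes, in 52 windows, and the 250 bases upstream of each annotated start were searched on both strands. In all 5 windows capitals mark the letters of a kB site (the NF-kB motif), an AP-1 element (TGANTCA), a core of the cyclic AMP response element or CRE (TGACG) and a heat-shock element (GAANNTTC).
Il6, chr5:30012864-30013113, plus strand: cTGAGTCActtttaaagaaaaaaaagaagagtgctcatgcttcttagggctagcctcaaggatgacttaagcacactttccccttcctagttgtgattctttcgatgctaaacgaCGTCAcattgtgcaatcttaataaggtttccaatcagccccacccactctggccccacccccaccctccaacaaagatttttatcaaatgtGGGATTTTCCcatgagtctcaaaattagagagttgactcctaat
Rel, chr11:23770970-23771219, minus strand: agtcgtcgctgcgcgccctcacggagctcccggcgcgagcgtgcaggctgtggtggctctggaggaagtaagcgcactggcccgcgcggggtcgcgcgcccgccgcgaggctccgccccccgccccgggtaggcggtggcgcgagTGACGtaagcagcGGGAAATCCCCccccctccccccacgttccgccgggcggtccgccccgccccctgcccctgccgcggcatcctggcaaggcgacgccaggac
Maff, chr15:79347270-79347519, plus strand: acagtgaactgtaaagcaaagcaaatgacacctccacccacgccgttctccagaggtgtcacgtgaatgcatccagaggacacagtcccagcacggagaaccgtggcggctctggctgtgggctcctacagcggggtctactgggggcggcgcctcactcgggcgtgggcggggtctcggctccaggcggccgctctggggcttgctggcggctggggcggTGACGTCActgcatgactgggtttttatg
Hspa1a, chr17:34972157-34972406, minus strand: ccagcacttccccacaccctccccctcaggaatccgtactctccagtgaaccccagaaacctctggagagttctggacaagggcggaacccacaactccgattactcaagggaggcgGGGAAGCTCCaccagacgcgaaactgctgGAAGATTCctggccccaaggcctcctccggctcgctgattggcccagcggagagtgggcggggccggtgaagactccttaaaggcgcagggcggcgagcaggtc
Hspa1b, chr17:34959239-34959488, minus strand: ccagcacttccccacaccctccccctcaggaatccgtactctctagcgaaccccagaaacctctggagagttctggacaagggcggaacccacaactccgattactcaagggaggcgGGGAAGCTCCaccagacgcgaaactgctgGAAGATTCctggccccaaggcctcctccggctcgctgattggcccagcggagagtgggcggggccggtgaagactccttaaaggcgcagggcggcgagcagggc
In the Il6 window the capitals are, from the 5' end, an AP-1 element, a CRE core on the reverse strand and a kB site. The Rel window holds a CRE core and then overlapping kB matches. Maff had 3 windows, and the one shown holds a full CRE (TGACGTCA), which is the CRE core read on both strands. Of the other Maff windows, 1 held a CRE core and a kB match and 1 held none of these letters. The upstream sequences of Hspa1a and Hspa1b were 98.8% identical over 250 positions, and each carries a kB match followed by the heat-shock letters. A letter match describes the sequence and does not show that a factor binds there.

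Over all windows of the 34 genes, kB letters occurred in 17.3%, against 7.25% of the 32851 windows of the whole table. The CRE core occurred in 44.2% against 17.8%, and the full CRE, which contains it, in 3.85% against 1.55%. AP-1 letters were present in 13.5% against 6.75%, and heat-shock letters in 9.62% against 6.69%. The TATA letters TATAAA were found in 5.77% of the member windows against 12.4%, the metal response letters TGCACNC in 9.62% against 10.4%, and the interferon-stimulated response element in 3.85% against 2.98%. No member window held a CArG box, which 1.47% of all windows did. The 9 genes with a kB match were Ccrl2, Hspa1a, Hspa1b, Il6, Jdp2, Maff, Nlrp3, Rel and Zc3h12c. Some shares rest on few windows, with heat-shock letters in 5 and the full CRE in 2 of the 52. The near-identical windows of Hspa1a and Hspa1b both count among those 5 and among the 9 with kB letters. Base composition was not matched in these shares, and windows of 1 gene can overlap.

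The rise with LPS and the further rise at 300 mg/kg define the set, so both are descriptions and carry no test. Over the 42 genes the rise from naive to LPS had a median of 1.74 and ran from 1.01 to 6.43 on the log2(signal + 16) scale. The rise from LPS to 300 mg/kg had a median of 1.36 and ran from 1.01 to 2.80. The genes just inside the first limit were Gna13 at 1.01, Egr1 at 1.06 and Slc39a1 at 1.11, and Sox15 at 0.99, Rasgef1b at 0.98 and Crk at 0.92 fell just short of it. At the second limit D16Ertd472e at 1.01, Prdm1 at 1.02 and Slc39a1 at 1.03 were inside, and Neo1 at 0.95, Ric1 at 0.95 and Nfkbiz at 0.94 were outside. Of the 42 genes, 17 fell into 8 of the 15 pathway lists used here. The chemokine, Toll-like receptor 4, MAP kinase, NRF2, unfolded protein, hypoxia and interferon lists held no member. These lists named only 25 to 45 genes each, so an empty list cannot show that members of that kind were lacking. Plscr1, an interferon-inducible member, was not on the interferon list.

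**Figure D1:**
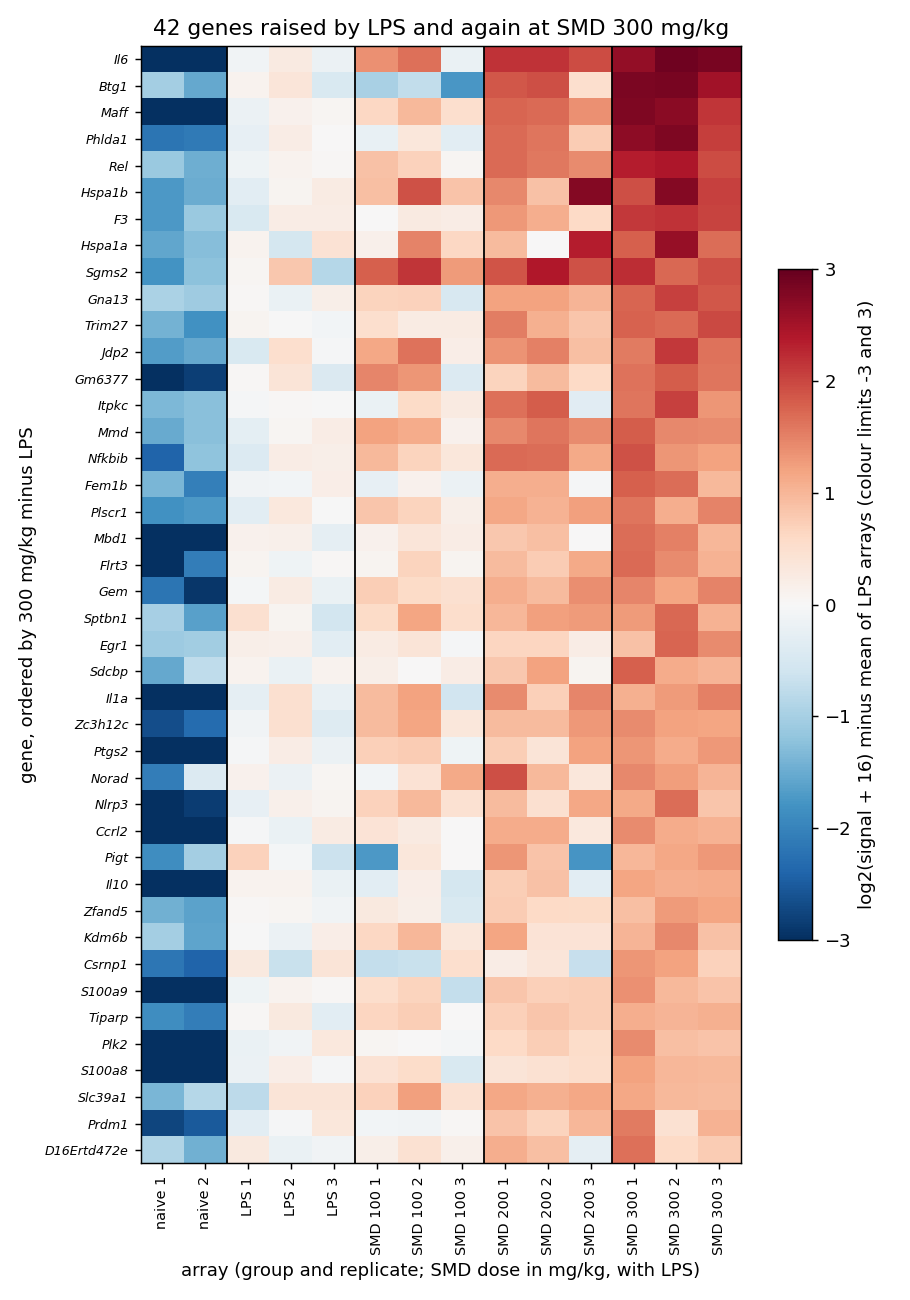
Each row is a gene and each column an array, coloured by log2(signal + 16) minus the mean of the LPS arrays for that gene, with colours limited at -3 and 3. The 300 mg/kg columns are red and the naive columns blue by the choice of genes, and the 100 mg/kg columns are paler than the 200 mg/kg columns for most rows.

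Among the cytokines, Il6, the gene of interleukin 6, an inducer of the acute-phase response, had the largest further rise. Il6 read 233 and 201 on the naive arrays, 3218, 4165 and 3062 on the LPS arrays, 8916, 10954 and 2998 at 100 mg/kg, 15600.3, 15491 and 13388 at 200 mg/kg and 21677, 26130.2 and 24816 at 300 mg/kg. Every 300 mg/kg array exceeded every 200 mg/kg array, and 1 array at 100 mg/kg, replicate 3, lay below all LPS arrays while the other two lay above them. The log2 difference was 3.90 from naive to LPS and 2.80 from LPS to 300 mg/kg.

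Il1a encodes interleukin 1 alpha, an alarm cytokine kept largely inside the cell. Il1a read 183 and 85.8 on the naive arrays, 3336, 5613 and 3425 on the LPS arrays, 7720.1, 9326 and 2669 at 100 mg/kg, 10688, 6614 and 11159 at 200 mg/kg and 8447, 9707 and 11434 at 300 mg/kg. The rise from naive to LPS was 4.82, among the largest of the set, whereas the rise to 300 mg/kg was 1.29 and the 200 and 300 mg/kg arrays overlapped. Il10 encodes the anti-inflammatory cytokine interleukin 10. Il10 read 50.8 and 47.4 on the naive arrays, 876, 873 and 708 on the LPS arrays, 648, 931 and 556 at 100 mg/kg, 1380.3, 1524 and 654 at 200 mg/kg and 1879, 1757 and 1777 at 300 mg/kg. The 300 mg/kg arrays were tightly grouped above all others, and the 100 mg/kg arrays spread around the LPS arrays, with replicate 3 the lowest at both lower doses.

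Ptgs2, which encodes the inducible cyclooxygenase of prostaglandin synthesis, was near the bottom of the scale on the naive arrays and high on all others. Ptgs2 read 17.7 and 1.1 on the naive arrays, 2003, 2399 and 1809.5 on the LPS arrays, 3392, 3510.4 and 1886 at 100 mg/kg, 3464, 2714 and 4761 at 200 mg/kg and 5156, 4486 and 5114 at 300 mg/kg. The 300 mg/kg arrays lay above all LPS arrays and overlapped the 200 mg/kg arrays, with a difference from LPS of 1.25. The difference from naive to LPS, 6.43, depends on the added 16, because the naive mean lay under 33.9, the level below which probe sets were not tested. The same held for Maff, Nfkbib, Norad, Pigt, Sgms2 and Trim27, 7 members in all. A further probe set of Ptgs2 also rose with LPS, by 3.70, but was lower at 300 mg/kg than with LPS alone, with a difference of -0.71.

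Nlrp3 encodes the sensor of an inflammasome that releases interleukin 1 beta. Nlrp3 read 512 and 570.4 on the naive arrays, 3594, 4736 and 4458 on the LPS arrays, 6814, 8329 and 5779 at 100 mg/kg, 8211, 5925 and 9519.5 at 200 mg/kg and 9319.8, 13472 and 7525 at 300 mg/kg. All SMD arrays exceeded all LPS arrays, and the 3 dose groups overlapped each other. F3 encodes tissue factor, which starts blood coagulation. F3 read 38.0 and 66.5 on the naive arrays, 115, 194 and 195 on the LPS arrays, 164, 200.4 and 195 at 100 mg/kg, 427, 365 and 256 at 200 mg/kg and 759, 788 and 715 at 300 mg/kg. Its 300 mg/kg arrays lay above all 200 mg/kg arrays, and the 100 mg/kg arrays lay within or just above the range of the LPS arrays.

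The list of receptors and brakes of inflammation had 3 members. Rel encodes c-Rel, an activating NF-kB subunit. Rel read 332 and 258 on the naive arrays, 675, 795 and 757 on the LPS arrays, 1378, 1214 and 771 at 100 mg/kg, 2458, 2262 and 1990.3 at 200 mg/kg and 3837, 4029 and 2914 at 300 mg/kg. The 200 mg/kg arrays were above all 100 mg/kg arrays and below all 300 mg/kg arrays, and the difference from LPS at 300 mg/kg was 2.24. Zc3h12c encodes a CCCH zinc-finger protein of the regnase family. Zc3h12c read 198 and 255 on the naive arrays, 1237, 1853 and 1012 on the LPS arrays, 2566, 3017 and 1689 at 100 mg/kg, 2584, 2562 and 3268 at 200 mg/kg and 3544, 3083 and 3012 at 300 mg/kg. Only replicate 3 of the 100 mg/kg group fell among the LPS arrays, and the 200 and 300 mg/kg groups overlapped. Nfkbib, the gene of the inhibitor IkB beta, was in the set through a dim probe set. Nfkbib read 6.4 and 35.6 on the naive arrays, 72.8, 122 and 119 on the LPS arrays, 216, 173 and 133 at 100 mg/kg, 371, 364 and 244 at 200 mg/kg and 426, 282 and 258 at 300 mg/kg. Its 200 and 300 mg/kg arrays overlapped, and its brighter probe set rose by 2.42 with LPS and was lower at 300 mg/kg than with LPS alone, with a difference of -1.21.

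The immediate early list gave the members Maff, Egr1 and Csrnp1, with the largest further rise in Maff. Maff encodes a small Maf protein that pairs with other basic leucine zipper factors such as NRF2. Maff read 4.7 and 2.8 on the naive arrays, 274, 345 and 328 on the LPS arrays, 489, 628 and 453 at 100 mg/kg, 1093, 1057 and 838 at 200 mg/kg and 2294, 2124 and 1445 at 300 mg/kg. The 5 groups did not overlap, and the order of the groups followed the dose, with rises of 4.07 with LPS and 2.55 from LPS to 300 mg/kg. The zinc-finger factor gene Egr1 was high in naive cells already. Egr1 read 1910.0 and 1957 on the naive arrays, 4576, 4487 and 3246 on the LPS arrays, 4783, 5280.3 and 3987 at 100 mg/kg, 6360.2, 6333 and 4726 at 200 mg/kg and 7456, 13619 and 10833 at 300 mg/kg. The 300 mg/kg arrays were above all others, and the 100 mg/kg arrays overlapped both the LPS and the 200 mg/kg arrays. Csrnp1 encodes a nuclear protein induced by axin and cytokine signals. Csrnp1 read 269 and 226 on the naive arrays, 1546, 793 and 1645 on the LPS arrays, 762, 790.5 and 1797 at 100 mg/kg, 1477, 1619.8 and 776 at 200 mg/kg and 3214, 2922 and 2057 at 300 mg/kg. Its LPS, 100 and 200 mg/kg arrays covered much the same range, and only the 300 mg/kg arrays stood clear of them.

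Hspa1a and Hspa1b encode near-identical inducible HSP70 chaperones, and probes of either can detect both, so their signals are not separate measurements. Hspa1b read 715 and 846 on the naive arrays, 1912, 2534 and 2848 on the LPS arrays, 4504, 9110.4 and 4326 at 100 mg/kg, 6518, 4456 and 16226 at 200 mg/kg and 9183, 16156 and 9935 at 300 mg/kg. Within the 200 mg/kg group replicate 3 was the highest array of all, above every 300 mg/kg array, and the 200 mg/kg group overlapped both other doses, while all 300 mg/kg arrays lay just above all 100 mg/kg arrays. Hspa1a read 253 and 315 on the naive arrays, 838, 534 and 1061 on the LPS arrays, 862, 2205 and 1203 at 100 mg/kg, 1528, 782 and 4047 at 200 mg/kg and 2737, 4856 and 2534 at 300 mg/kg. The same array was again far above the other 200 mg/kg arrays, and replicate 2 of the 200 mg/kg group lay among the LPS arrays.

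In the list of apoptosis and p53 targets, Btg1, Phlda1 and Plk2 were members. Btg1 encodes an antiproliferative protein that binds the CCR4-NOT deadenylase. Btg1 read 68.2 and 43.1 on the naive arrays, 166, 202 and 108 on the LPS arrays, 70.8, 86.2 and 34.9 at 100 mg/kg, 598, 631 and 226 at 200 mg/kg and 1192, 1206 and 959 at 300 mg/kg. All 100 mg/kg arrays lay below all LPS arrays and the 200 mg/kg arrays above them, so its level did not follow the dose from the start. The selected Btg1 probe set was much dimmer than the gene's other probe sets, and those differed by 0.43 and 0.21 between 300 mg/kg and LPS. Phlda1 encodes a pleckstrin homology domain protein linked to apoptosis. Phlda1 read 279 and 294 on the naive arrays, 1123, 1547 and 1346 on the LPS arrays, 1144, 1679 and 1057 at 100 mg/kg, 4339, 4061 and 2249.8 at 200 mg/kg and 8639.5, 9407 and 5685 at 300 mg/kg. The 100 mg/kg arrays covered the range of the LPS arrays, and the 200 and 300 mg/kg groups stood in order above them. Plk2, a stress-responsive Polo-like kinase gene, gave a smaller further rise of 1.06. Plk2 read 333 and 332 on the naive arrays, 2419.9, 2588 and 3463 on the LPS arrays, 2898, 2803 and 2669.7 at 100 mg/kg, 4230.2, 4648 and 4119 at 200 mg/kg and 7473, 5228 and 5027 at 300 mg/kg. Its 200 mg/kg arrays were above all LPS and 100 mg/kg arrays and below all 300 mg/kg arrays.

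**Figure D2:**
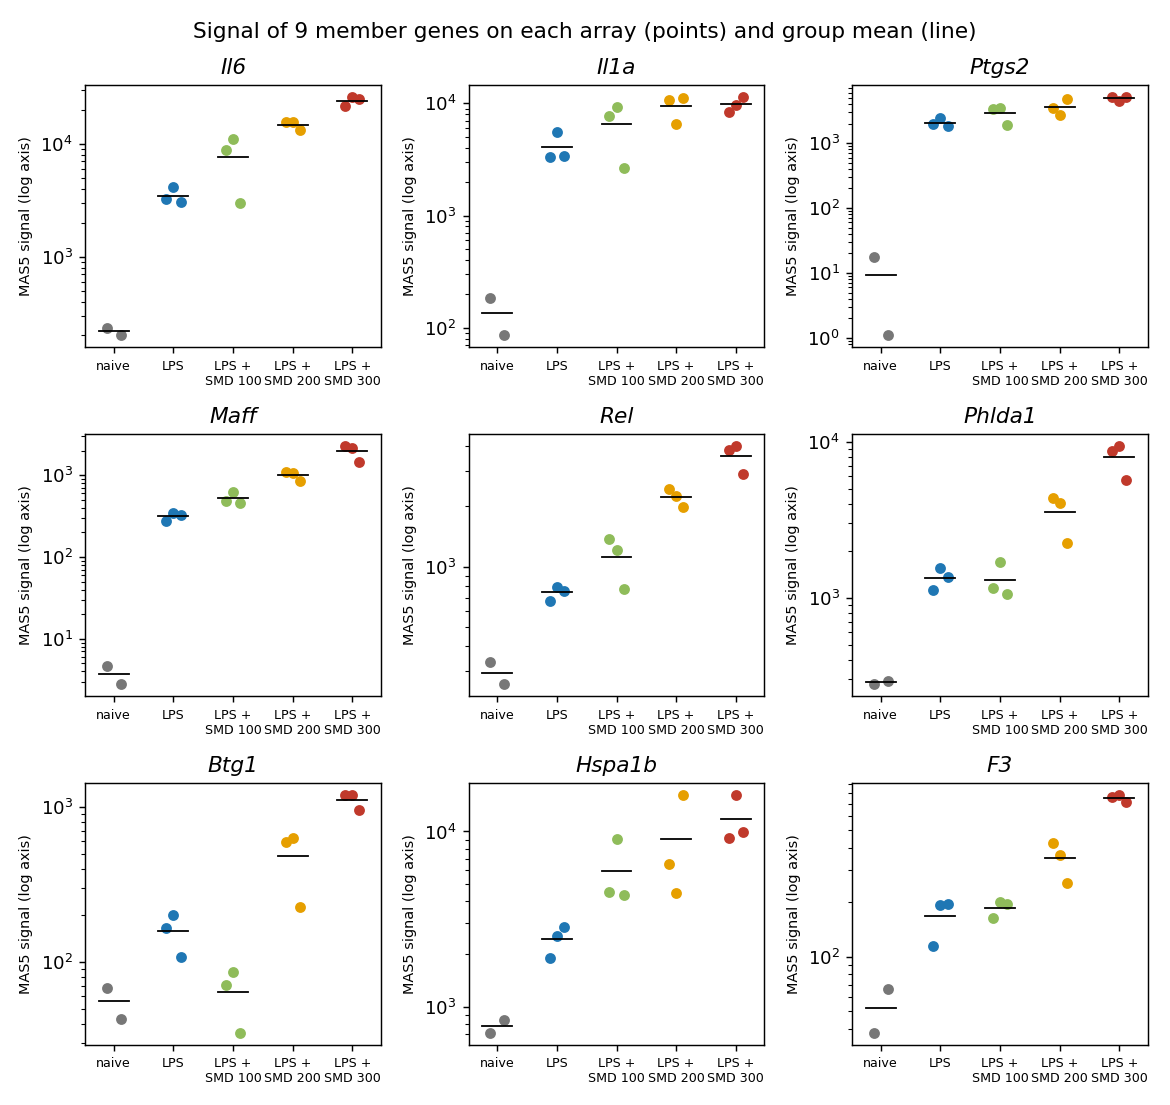
Signal on a log axis for 9 of the genes, with a point per array and a line at the group mean, for the naive, LPS and LPS plus SMD groups (dose in mg/kg). For Btg1 the 100 mg/kg arrays lie below the LPS arrays, and for Maff no groups overlap, whereas the 200 mg/kg arrays of Hspa1b overlap those of both other doses.

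A further 12 genes came from no pathway or marker list and had the largest rises to 300 mg/kg among those 23. Sgms2, a sphingomyelin synthase gene, was dim. Sgms2 read 3.2 and 12.5 on the naive arrays, 52.8, 99.7 and 20.9 on the LPS arrays, 214, 277 and 144 at 100 mg/kg, 229, 335 and 232 at 200 mg/kg and 293, 202 and 238 at 300 mg/kg. All SMD arrays were above all LPS arrays, with no order among the doses. Gna13 encodes the G protein subunit alpha 13. Gna13 read 758 and 696 on the naive arrays, 1513, 1275 and 1674 on the LPS arrays, 2369.7, 2385 and 1063 at 100 mg/kg, 3446, 3436 and 3007 at 200 mg/kg and 4976, 6214 and 5433 at 300 mg/kg. The 300 mg/kg arrays exceeded all 200 mg/kg arrays, which exceeded all 100 mg/kg arrays, and replicate 3 at 100 mg/kg lay below the LPS arrays. Further Gna13 probe sets went both ways between 300 mg/kg and LPS, from -1.93 to 1.77. Trim27, a tripartite motif ubiquitin ligase gene, had signals of 94.2, 87.7 and 82.9 with LPS alone, 132, 108 and 107, 284, 203 and 169 and 341, 323 and 397 at 100, 200 and 300 mg/kg, each group above the last, from 23.3 and 13.6 on the naive arrays. The brightest Trim27 probe set went the other way, with means of 6060 with LPS and 5372, 4301 and 3724 at the 3 doses. Jdp2 encodes a repressor that pairs with Jun. Jdp2 read 585 and 647 on the naive arrays, 1385, 2739 and 1860.5 on the LPS arrays, 4341, 6014 and 2189 at 100 mg/kg, 4917, 5502 and 3583 at 200 mg/kg and 5723, 8399 and 5929 at 300 mg/kg. Its 100 and 200 mg/kg arrays overlapped, and the 300 mg/kg arrays were above all 200 mg/kg arrays.

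Itpkc, an inositol trisphosphate kinase gene, had 1 array that stood apart. It read 536, 557 and 545 with LPS alone, 473, 823 and 664, 1745, 1977 and 425 and 1703, 2316 and 1399 at 100, 200 and 300 mg/kg, from 205 and 221 on the naive arrays, and replicate 3 at 200 mg/kg lay below the LPS arrays. Mmd, named for monocyte to macrophage differentiation, read 1791, 2302 and 2578 with LPS alone, 5060.1, 4811 and 2407, 6003, 6712 and 5878 and 7822, 6015 and 5895 at 100, 200 and 300 mg/kg, from 766 and 917 on the naive arrays. Its 200 mg/kg arrays exceeded all 100 mg/kg and LPS arrays and overlapped the 300 mg/kg arrays. Gm6377, a predicted gene, read 1736, 2224 and 1236 with LPS alone, 4659.8, 4215 and 1273, 2686, 3244 and 2566 and 5255, 5967 and 5153 at 100, 200 and 300 mg/kg, from 189 and 225 on the naive arrays. It was the only member whose mean was lower at 200 than at 100 mg/kg, with a difference of -0.06 on the log2 scale.

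Fem1b encodes a substrate receptor of a ubiquitin ligase and read 400.3, 411 and 498 with LPS alone, 363, 478 and 386, 940.4, 939 and 425 and 1538, 1430.3 and 870.0 at 100, 200 and 300 mg/kg, from 158 and 92.1 on the naive arrays. Replicate 3 at 200 mg/kg lay within the LPS range. Plscr1, an interferon-inducible phospholipid scramblase gene, read 3985, 6203 and 4962 with LPS alone, 8897, 7914 and 5595, 11084, 10303 and 11750.5 and 15093, 10675 and 13975 at 100, 200 and 300 mg/kg, from 1396 and 1494 on the naive arrays, and the 200 and 300 mg/kg arrays overlapped. Mbd1 encodes a protein that binds methylated DNA. It read 1883, 1933 and 1433 with LPS alone, 1913, 2239.5 and 2043, 3048, 3252 and 1763 and 5554, 5014 and 3468 at 100, 200 and 300 mg/kg, from 76.7 and 107 on the naive arrays, with all 300 mg/kg arrays the highest. Flrt3, a cell adhesion gene, read 399.7, 347 and 389 with LPS alone, 401, 608 and 401, 743, 653 and 853 and 1270.3, 1031 and 798 at 100, 200 and 300 mg/kg, from 5.6 and 77.6 on the naive arrays, where its replicates differed widely near the lower end of the scale. Gem encodes a small GTP-binding protein and read 1178, 1458 and 1068 with LPS alone, 2046, 1825 and 1713, 2638, 2375 and 3254 and 3398, 2808 and 3449 at 100, 200 and 300 mg/kg, from 256 and 148 on the naive arrays. For Gem the SMD arrays lay above all LPS arrays and the 200 mg/kg arrays above all 100 mg/kg arrays.

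Of the genes near the limits, Prdm1, which encodes the repressor Blimp-1, read 1213, 1487 and 1938 with LPS alone, 1433, 1421 and 1548, 2780.4, 2432 and 3042 and 4527, 2099 and 3126 at 100, 200 and 300 mg/kg, from 212 and 252 on the naive arrays. Replicate 2 at 300 mg/kg was below all 200 mg/kg arrays. Slc39a1, a zinc importer gene, read 748, 1711 and 1718 with LPS alone, 2096, 3092 and 1795, 2904, 2749 and 2918 and 2942, 2558 and 2529.6 at 100, 200 and 300 mg/kg, from 496 and 711 on the naive arrays, and 1 LPS array was close to the naive ones. D16Ertd472e read 904, 643 and 683 with LPS alone, 832, 1016 and 821, 1581, 1398 and 608 and 2361, 1129 and 1255 at 100, 200 and 300 mg/kg, from 389 and 259.8 on the naive arrays, and its 200 mg/kg arrays overlapped both the 100 and the 300 mg/kg arrays. The remaining members were Sptbn1, Sdcbp, Norad, Ccrl2, Pigt, Zfand5, Kdm6b, Tiparp, S100a8 and S100a9.

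S100a8 and S100a9, the subunits of the calcium-binding protein calprotectin, are also neutrophil markers, and their values are given for that reason, chosen after they had been seen. S100a8 read 915 and 838 on the naive arrays, 9727, 12709.6 and 10772 on the LPS arrays, 14769.7, 16209.7 and 8025 at 100 mg/kg, 14488, 15169.7 and 15743 at 200 mg/kg and 25299, 21942 and 21437 at 300 mg/kg. S100a9 read 480.2 and 432 on the naive arrays, 6334, 7408 and 7120.2 on the LPS arrays, 10024, 11114 and 4199 at 100 mg/kg, 12389.9, 11452 and 11531 at 200 mg/kg and 17994, 13713 and 12604 at 300 mg/kg. For both, the 300 mg/kg arrays lay above all 200 mg/kg arrays. The other 11 neutrophil markers on the arrays summed to 2198 to 2986 signal units on the naive arrays, 18270 to 23863 with LPS, 12016 to 17177 at 100 mg/kg, 10108 to 13063 at 200 mg/kg and 5332 to 7829 at 300 mg/kg. Lcn2, which macrophages also make after LPS, was the largest of them, and without it the sums were 4006 to 6111 with LPS and 2925 to 5527 at 300 mg/kg. The myeloperoxidase gene Mpo and the elastase gene Elane were at most 96.2 and 108.8 on any array. The granule genes Ngp, Camp and Ltf were higher with LPS than on the naive arrays. Ngp was at 36.0 to 84.2 on the naive arrays, 1053 to 1237 with LPS and 597 to 1791 at 300 mg/kg. Camp was at 38.2 to 56.9, 248 to 293 and 165 to 339, and Ltf at 3.0 to 11.3, 116 to 223 and 85.9 to 290.4, in the same groups. Of the other markers in the list, Mmp8 was also higher with LPS, but not all were. Mmp9 was at 483.5 to 522.9 on the naive arrays and 165.7 to 485.4 with LPS. The naive and LPS ranges of Cd177 overlapped. Those of Csf3r overlapped as well, at 1286.5 to 1936 and 1911 to 3395. Csf3r was lower at the upper doses than with LPS, at 1129 to 1312 at 200 mg/kg and 890 to 1493 at 300 mg/kg. Limma called Csf3r and Lcn2 lower at 200 mg/kg than with LPS. The part of neutrophils in the S100a8 and S100a9 values was not tested.

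The comparison of 200 with 100 mg/kg used arrays that played no part in choosing the genes. Of the 42 genes, 41 had a higher mean at 200 than at 100 mg/kg, with Gm6377 the exception, whereas 47% of the 27022 probe sets tested had a positive difference. The median difference was 0.59 over the members, from -0.06 to 2.58, and -0.04 over all probe sets tested. In 17 members every 200 mg/kg array exceeded every 100 mg/kg array, which was so for 10.1% of all probe sets.

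By limma with Benjamini-Hochberg adjustment over all probe sets tested, 3 members were higher at 200 mg/kg and none was lower, against 0.788% of all probe sets called higher. Btg1 rose by 2.58 ± 0.39 (SE, adjusted p = 0.00664), Phlda1 by 1.42 ± 0.25 (SE, adjusted p = 0.0121) and Rel by 1.02 ± 0.22 (SE, adjusted p = 0.03), with 3 arrays in each group and no overlap for any of them. At an unadjusted p under 0.05 the count was 19 of 42, against 14.7% of all probe sets in either direction. The further Btg1 probe sets, which were far brighter, differed by 0.08 and -0.15 between these doses (limma adjusted p = 0.800 and 0.608). Il6 differed by 1.15 ± 0.31 (SE, adjusted p = 0.0779), Maff by 0.91 ± 0.24 (SE, adjusted p = 0.0793), Prdm1 by 0.89 ± 0.24 (SE, adjusted p = 0.0739) and Zfand5 by 0.62 ± 0.17 (SE, adjusted p = 0.0793), without passing the threshold. The calls rested on few arrays. Without 200 mg/kg replicate 1 or 2 no member passed, and the share of all probe sets called higher fell to 0.0222% and 0.0518%. Without 100 mg/kg replicate 1 only 1 member passed (0.13% of all probe sets higher), and without 200 mg/kg replicate 3 there were 5 (0.596%).

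**Figure D3:**
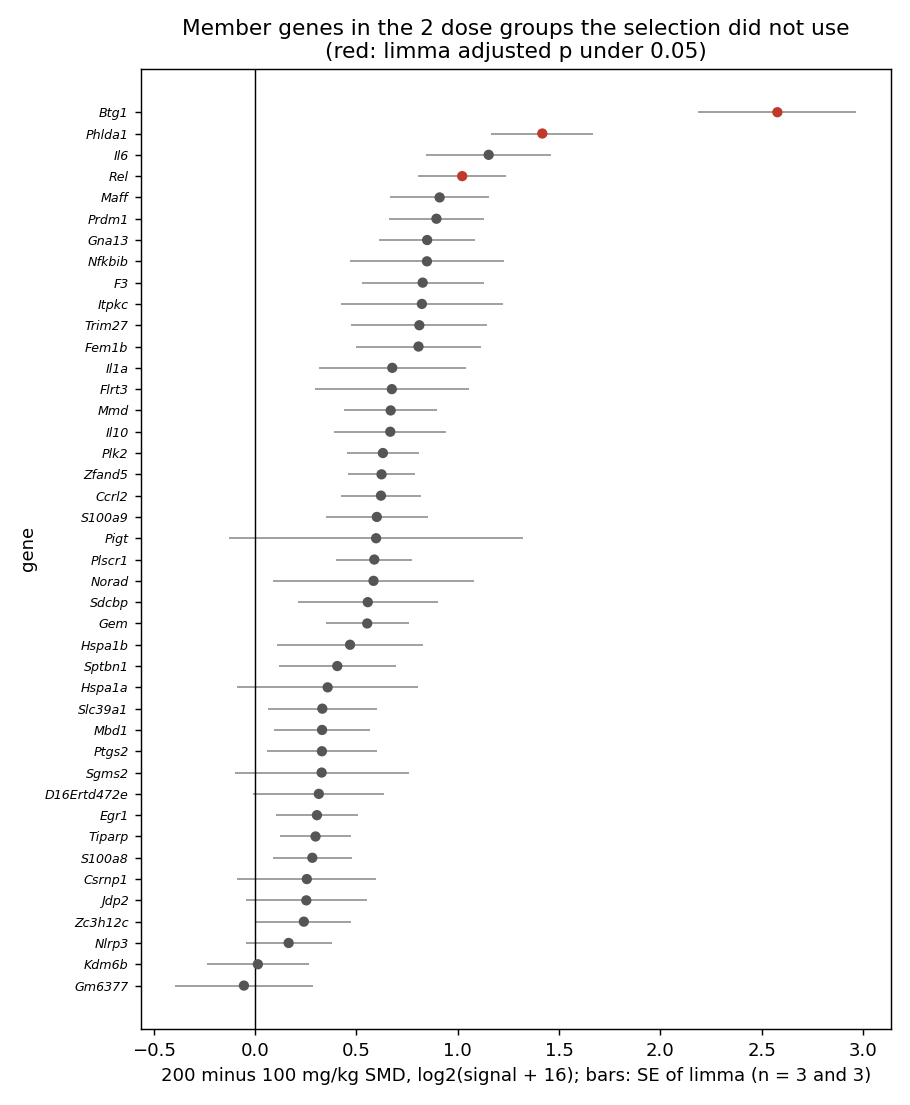
Difference between 200 and 100 mg/kg on the log2(signal + 16) scale for each member, with bars of 1 standard error from limma (3 arrays in each group) and red points at an adjusted p under 0.05. All points but that of Gm6377 lie above 0, and Btg1 has the largest value, 2.58.

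The summed markers of lymphocytes overlapped between 100 and 200 mg/kg, and single markers moved in both directions. The 13 B-cell markers summed to 53122 to 78110 at 100 mg/kg, 66007 to 76812 at 200 mg/kg and 86990 to 99098 at 300 mg/kg, against 76736 to 85980 with LPS alone. Ebf1, a B-cell transcription factor gene, was the 1 of the 13 called higher at 200 than at 100 mg/kg by limma, at 576 to 723 and 1186 to 1504, with 2129 to 2143 at 300 mg/kg. The 14 T and NK cell markers summed to 8167 to 11841, 9685 to 11391 and 10529 to 11094 at the 3 doses and none was called by limma, with 5 at an unadjusted p under 0.05. Cd3e, a T-cell receptor subunit gene, was at 41.6 to 331, 361 to 627 and 654 to 989. The granzyme genes of the same list were lower at 200 than at 100 mg/kg. Gzmb was at 2546 to 3414, 1364 to 2429 and 423 to 1258, and Gzma at 904 to 1114, 595 to 717 and 531 to 959. Sums of other cell types did lie apart between 100 and 200 mg/kg. The 10 monocyte and dendritic cell markers summed to 11237 to 12174, 6425 to 8851 and 6708 to 10596 at the 3 doses. With LPS alone they summed to 15197 to 16058. Of the 8 tested, limma called none between 100 and 200 mg/kg, with 3 at an unadjusted p under 0.05. The 5 eosinophil markers summed to 1007 to 1534 at 100 mg/kg and to 1647 to 2049 at 200 mg/kg. The part of these cells in the members' values was not tested.

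The lists that held members were compared between the same doses, with each gene represented by its brightest probe set. In the apoptosis and p53 list 3 of 28 genes tested were higher and 0 lower: besides Phlda1 these were Pmaip1, which encodes the BH3-only protein NOXA, by 1.91 ± 0.25 (SE, limma adjusted p = 0.00273), and Sesn1, a p53-induced sestrin gene, by 1.30 ± 0.21 (SE, limma adjusted p = 0.00789). Of 35 receptors and brakes of inflammation, Rel and the mRNA-decay factor gene Zfp36l1 (0.70 ± 0.17) were higher and Tnip1, an A20-binding inhibitor gene, was lower (-0.61 ± 0.14). In the heat-shock and metal list Hsph1, a large HSP110 chaperone gene, was higher by 1.42 ± 0.31, and no other of 25 genes passed. None of the 28 cytokine and growth factor genes and none of the 27 adhesion, matrix and coagulation genes passed in either direction by limma, with 5 and 8 at an unadjusted p under 0.05. Of 37 immediate early genes, Klf2 alone passed and was lower (-0.62 ± 0.13). Of 30 enzymes of the prostaglandin and itaconate list, Arg1, the arginase gene, was higher by 1.70 ± 0.30 and Ptges, a prostaglandin E synthase gene, was lower (-1.23 ± 0.28). Of 31 pattern and scavenger receptors, Clec7a (1.49 ± 0.30) and Cd80 (1.38 ± 0.28) were higher.

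The comparisons of 100 and of 200 mg/kg with LPS share the LPS arrays with the choice of genes. At 100 mg/kg the members differed from LPS by a median of 0.39, from -1.15 to 1.73, and 34 of 42 lay above LPS. Those below were Btg1, Csrnp1, Fem1b, Il10, Phlda1, Pigt, Plk2 and Prdm1. In 11 members all 100 mg/kg arrays exceeded all LPS arrays (5.49% of all probe sets). By limma 0 members and 0% of all probe sets were called, with 17 members and 2428 probe sets at an unadjusted p under 0.05. That count of 0 changed without 100 mg/kg replicate 3, when 9 members and 0.87% of all probe sets were higher than with LPS alone. The 9 were Il6 by 1.51 (limma adjusted p = 0.000742), Sgms2, Gna13, Jdp2, Gm6377, Mmd, Plscr1, Zc3h12c and Tiparp.

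At 200 mg/kg the median difference from LPS was 1.02, and 41 members lay above LPS, with Csrnp1 at -0.04. In 33 members all 200 mg/kg arrays exceeded all LPS arrays (14.3% of all probe sets). By limma 25 members were higher and 0 lower, against 6.68% of all probe sets called higher. Nfkbib is among the 25 through its dim probe set, and its brighter one was called lower (-0.92, limma adjusted p = 0.0361). Without LPS replicate 1 the count was 14 (2.98% of all probe sets higher) and without 200 mg/kg replicate 1 it was 15 (3.79%). With the log2 actin ratio of each array as a covariate it was 5 (1.1%), namely Il6, Maff, Rel, Mmd and Ccrl2, and the members' median was 0.86.

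The dose pattern differed between genes. The mean rose at each step from LPS through 100 and 200 to 300 mg/kg in 30 members. The other 12 were Btg1, Csrnp1, Fem1b, Il10, Phlda1, Pigt, Plk2 and Prdm1, which were lower at 100 mg/kg than with LPS, Gm6377, and Nfkbib, Sgms2 and Slc39a1, which were lower at 300 than at 200 mg/kg. As a share of the gain at 300 mg/kg, the median member had reached 25.2% at 100 mg/kg and 62.9% at 200 mg/kg. In 19 members all 300 mg/kg arrays exceeded all 200 mg/kg arrays, and in 23 the groups overlapped. Of all probe sets 13.3% had this separation, and since the 300 mg/kg arrays chose the genes the count is a description only.

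In the groups that the limits of the choice did not use, the range over the 3 arrays, on the log2 scale, had a median over the members of 0.74 at 100 mg/kg and 0.60 at 200 mg/kg. At 300 mg/kg, replicate 3 was the lowest array in 25 of the 42 genes and the highest in 4, and replicate 1 was the highest in 22.

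The members' level and the actin ratio were both higher at the upper doses. The median of log2(signal + 16) over the 42 genes was 8.01 and 7.99 on the naive arrays, 10.24, 10.54 and 10.35 with LPS, 10.71, 10.98 and 10.47 at 100 mg/kg, 11.39, 11.29 and 11.43 at 200 mg/kg and 11.85, 11.79 and 11.59 at 300 mg/kg. Within the LPS, the 100 and the 200 mg/kg groups the array with the highest ratio had the highest median. At 300 mg/kg the order was opposite, with the lowest ratio, 6.99, on the array with the highest median. Replicate 2 at 100 mg/kg, with a ratio of 11.6, had a median of 10.98, below all 200 mg/kg arrays, whose ratios were 9.03 to 10.7. With the ratio as a covariate in limma the median difference between 200 and 100 mg/kg was 0.50 and 37 members were above 0. Limma then called 2 members higher, against 0.633% of all probe sets. Between 200 mg/kg and LPS the members called went from 25 to 5 with this covariate. The share of all probe sets called higher went from 6.68% to 1.1%. The ratio and the dose moved together between these groups, so their parts in the members' values cannot be told apart. The cause was not tested.

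**Figure D4:**
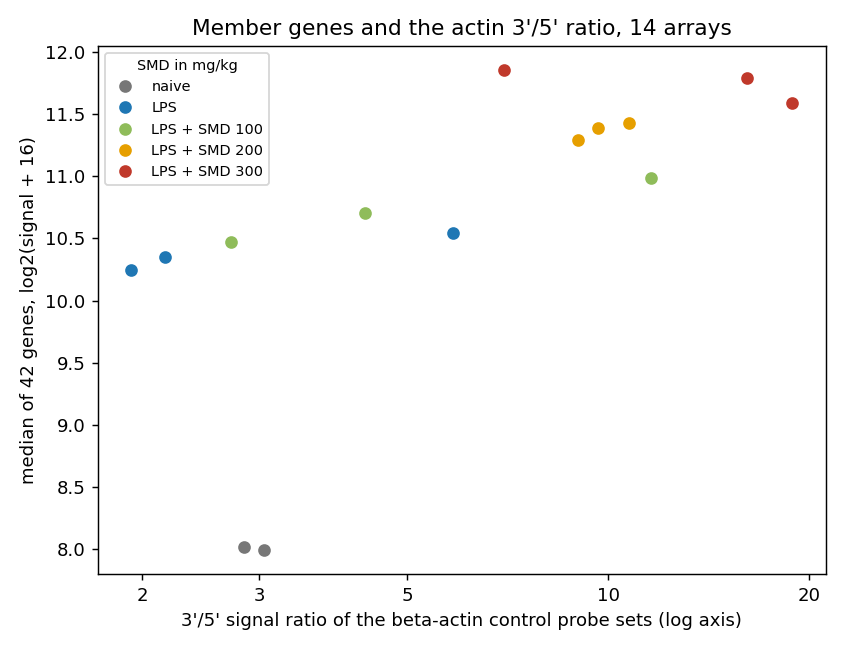
Median of log2(signal + 16) over the 42 genes on each array against the actin 3'/5' signal ratio of that array (log axis), coloured by group. The 300 mg/kg array with a ratio of 6.99 has the highest median, 11.85, and the 100 mg/kg array with a ratio of 11.6 lies below the 3 arrays at 200 mg/kg.

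A probe set reads only a short stretch of a transcript, so the further probe sets of the same genes were read beside the selected ones. They came from the same arrays and were not used to choose the genes unless they too passed, as 8 did. Of the 42 genes, 25 had 59 further probe sets, and 48 of these, for 21 genes, were bright enough to be tested. Their median difference between 300 mg/kg and LPS was 0.08, with 25 above 0 and 23 below, and 23 were above 0 at both steps. For 7 genes (D16Ertd472e, Fem1b, Gna13, Kdm6b, Nfkbib, Sptbn1 and Trim27) a further probe set was lower at 300 mg/kg than with LPS by 1 or more.

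In 12 genes a further probe set was brighter than the selected one, and none of these brighter probe sets rose by more than 1 from LPS to 300 mg/kg. The choice of genes largely fixes this, since a brighter probe set that passed would have been the selected one. The brightest Gna13 probe set differed by 0.40 where the selected one differed by 1.89. In some genes further probe sets rose as well, by 2.87 and 2.63 for Hspa1b, 1.15 and 1.87 for Plscr1, 1.77 for 1 of Gna13, 1.65 for 1 of Zfand5, 1.35 and 1.45 for Mbd1 and 1.27 for 1 of Mmd. For 17 members, Il6, Maff, Phlda1, Rel and F3 among them, the array had no further probe set under the same single symbol. Between 200 and 100 mg/kg 20 of the 48 further probe sets had a positive difference, and limma called 2 higher and 2 lower. The higher ones were of Mmd (1.24, limma adjusted p = 0.0296) and Zfand5 (0.84, limma adjusted p = 0.0489). The lower ones were of Trim27 (-1.11, limma adjusted p = 0.00839) and Gna13 (-1.01, limma adjusted p = 0.0289), against the direction of the selected probe sets.

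**Figure D5:**
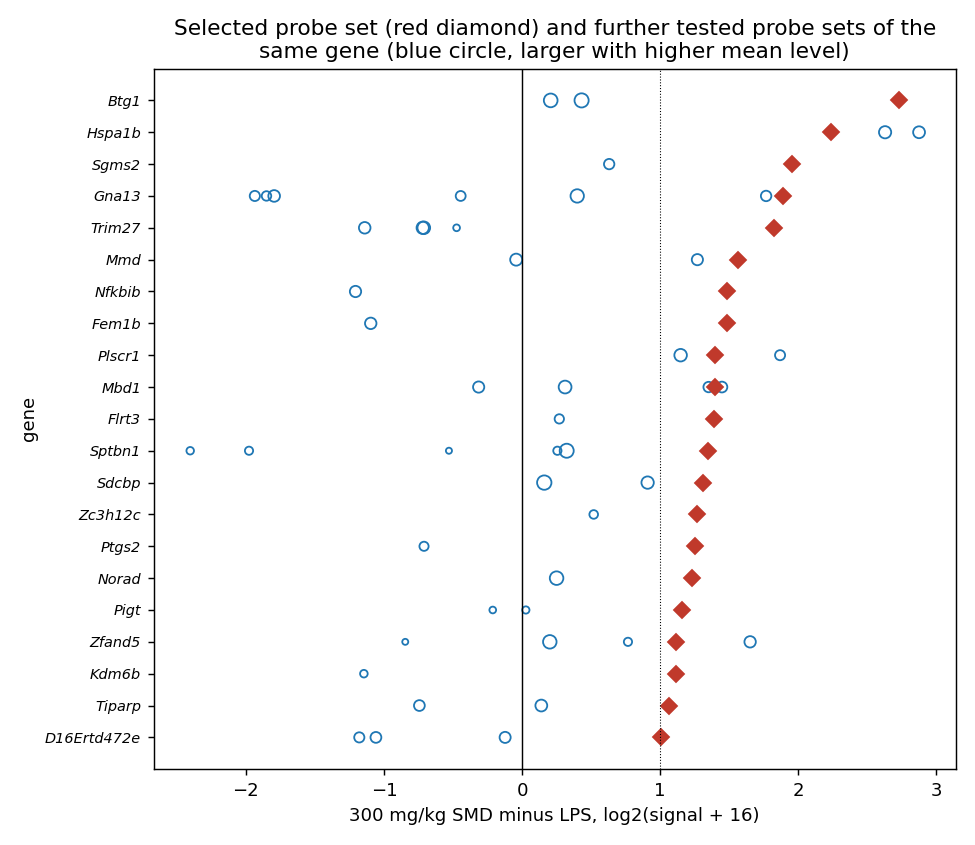
Difference between 300 mg/kg and LPS on the log2(signal + 16) scale for the selected probe set of 21 genes (red diamonds) and for further probe sets of the same gene (blue circles, larger with a higher mean level). The diamonds lie at 1 or above by the choice of genes, and the circles lie on both sides of 0, those of Hspa1b beyond its diamond.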

How the data were processed

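Affymetrix arrays of 14 samples were analysed. The authors deposited 1 linear intensity (signal) per probe set and array, for which the submitters' processing notes name MAS5 (version not given in the sources used here). The 2% trimmed mean is 500 on every array, so the deposited signals were scaled to a common level, which cannot show a change in total RNA. Of 45101 probe sets, 64 were controls, 34945 had 1 gene symbol, 932 several and 9160 none in the platform annotation. For 34741 of those with 1 symbol the gene identifier was found in RefSeq, and its current symbol was used, whether or not it differed.

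The members and gene lists were chosen with earlier results of these data known. Values were analysed as log2(signal + 16), so a log2 difference understates the change of dim genes. All 5 groups entered 1 limma fit (limma 3.58.1, R 4.3.3) over the 27022 probe sets that remained when the dimmest 40% by mean level had been removed, and all 42 members were among them. The fit was checked on simulated data. Calls used an adjusted p under 0.05. Genes with values were up to 5 members per pathway list and the 12 of no list with the largest rise to 300 mg/kg, those called between 200 and 100 mg/kg, and the 3 nearest each limit. Alternatives changed the pseudocount, the scaling, the filter, the arrays and the model. The number of arrays limits the precision. The comparison of 300 with 200 mg/kg was not tested because the 300 mg/kg arrays had chosen the genes.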

Additional observations from a re-analysis of the deposited data

How the results depend on the processing

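Most results kept their direction. The members' median difference between 200 and 100 mg/kg ran from 0.43 to 0.68 over the alternatives. With a limit of 1.5-fold at both steps 122 genes were members, and the other selection settings gave 30 to 61, of which 19 of the 42 were kept in all. Under array weights 8 members were called higher between 200 and 100 mg/kg (1.74% of all probe sets) and 6 between 100 mg/kg and LPS (0.651%). Of all probe sets 691 were then called in either direction between 200 and 100 mg/kg, where the fit as reported called 304. That count was 195 with median scaling and 149 with only the groups compared. With the actin ratio as a covariate 5 members were called between 200 mg/kg and LPS (1.1% of all probe sets higher). Leaving out 1 array at a time, the members called ran from 0 to 5 between 200 and 100 mg/kg, from 0 to 9 between 100 mg/kg and LPS and from 14 to 29 between 200 mg/kg and LPS, and the count over all probe sets between 200 and 100 mg/kg from 8 to 455. The shares of all probe sets called higher ran from 0.0222% to 1.16%, from 0% to 0.87% and from 2.98% to 8.5% in these comparisons. The lowest counts over all probe sets came without 200 mg/kg replicate 1 (8), 200 mg/kg replicate 2 (17) and 100 mg/kg replicate 1 (41). The count was 137 without 100 mg/kg replicate 3 and 139 without either naive array. The causes were not tested. Between 200 and 100 mg/kg the sign turned with the actin covariate for Jdp2 (-0.19), Zc3h12c (-0.015), Nlrp3 (-0.0032) and Kdm6b (-0.065). Against LPS, Pigt at 200 mg/kg was -0.13 with a pseudocount of 1 and -0.041 with the covariate, and Csrnp1 was 0.036 with median scaling and 0.86 with the covariate. Leaving out single arrays, the difference between 200 and 100 mg/kg ran from -0.65 to 0.28 for Gm6377, -0.27 to 0.91 for Hspa1a, -0.060 to 0.87 for Hspa1b, -0.15 to 0.57 for Jdp2, -0.24 to 0.18 for Kdm6b, -0.033 to 1.55 for Pigt and -0.033 to 0.47 for S100a8. Between 200 mg/kg and LPS it ran from -0.37 to 0.29 for Csrnp1 and from -0.45 to 1.10 for Pigt. With a replicate block 4 members were called between 200 and 100 mg/kg, 0 between 100 mg/kg and LPS and 26 between 200 mg/kg and LPS, with 312 of all probe sets for the first. The shares of all probe sets called higher were 0.77%, 0% and 6.61%. Deviations from the group means had correlations from -0.127 to 0.185 (median 0.016) in 26 same-numbered pairs of arrays. In the 52 other pairs they ran from -0.265 to 0.223 (median -0.0099). With 2 or 3 arrays per group this cannot show whether the numbers pair the samples, and the labels do not say. Rel was no longer called between 200 and 100 mg/kg under 7 alternatives, where its limma adjusted p was above 0.05, up to 0.133 without 200 mg/kg replicate 1. Groups of 2 and 3 arrays limit what could be called.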
